A study of Mus musculus with 21 samples.

Results

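Hematopoietic stem cells (HSCs) isolated at day 21 after 3 administrations of 5-FU were compared with HSCs isolated at day 21 after 1 administration. The members were chosen by their column labels in the count table, and made up 6 of the 21 RNA-seq libraries of the series, 3 in each group. 5-FU (5-fluorouracil) is a pyrimidine analogue that kills dividing blood progenitors and sets the surviving HSCs to divide. Wild type mice were 10 weeks old at the start and received 150 mg/kg of 5-FU intraperitoneally, either once or 3 times at intervals of 21 days. HSCs were taken from the bone marrow 20 days after the last administration, which the labels call day 21, by a gate for Sca-1+c-Kit+Lineage- cells that carry CD150 and lack CD48, with 3000 to 3500 cells a library. The study's general definition of HSCs from C57BL/6 mice also excludes cells that carry Flt3. The mice given 5-FU 3 times were therefore 42 days further from their first administration, and older by the same time, so the number of administrations, age and time since the first cannot be told apart in this comparison. Groups that shared no library with it served as references: groups that received the vehicle PBS on either schedule, all sampled at day 6, the 5-FU groups of the same 2 schedules sampled at day 6, and untreated mice aged 2 years, again with 3 libraries each. For HSCs taken at day 6 after 5-FU, the study's methods leave Mac-1 out of the lineage antibodies and widen the gate to cells with dim c-Kit. The gate was not widened at other times, so day and gate cannot be told apart between 5-FU groups. No PBS group isolated at day 21 was analysed here. Column names of the day 6 groups treated once, PBS and 5-FU, carry an added suffix whose meaning is not given. Comparisons of 3 with 1 administrations at day 6, and tests that include them, cannot tell the suffix apart from the schedule. Male and female mice were used in the study. Its methods name 3 independent experiments, as biological replicates, behind the RNA-seq of each cell type, while its figure legends describe pooled samples from biological replicates. How many mice stand behind each library is not given in the sources used here, so p-values measure the spread between these libraries, which may be partly technical.

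At steady state most HSCs rest outside the cell cycle. After 5-FU they enter it, rebuild the marrow over the following weeks and return to rest, so day 21 lies after the peak of division. HSCs also carry some machinery of immune cells: they present antigen on MHC class I and, at a lower level, on MHC class II molecules, and respond to interferons. With age they gain transcripts of the platelet lineage and of a set of genes such as Clu, Vwf and Selp.

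The 6 libraries held 25270496 to 36669644 counts. The libraries after 1 administration held 25270496, 36669644 and 33817653, and those after 3 held 25285301 to 26745138. Levels are given as CPM, counts brought to a common library size and scaled by TMM over all 21 libraries. Genes of the sorting gate were measured in all 6 libraries. Slamf1, which encodes CD150, lay at 40.3 to 48.3 CPM after 1 administration and 41.0 to 53.1 CPM after 3. Kit lay at 1275 to 1391 and 1066 to 1316 CPM, and Cd48, whose protein the gate excludes, at 4.31 to 7.29 and 1.36 to 7.28 CPM. The Y-linked genes Ddx3y, Eif2s3y, Uty and Kdm5d were present in all 6 libraries, with log2 differences from -0.33 to 0.07 between the groups, and were at 0 counts in the 3 libraries of old mice.

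A single gene passed the test across all genes. Cd74 rose after 3 administrations, and was the only call among 12474 genes put through edgeR's quasi-likelihood test at an adjusted p of 0.05, which is 0.00802% of them. At an unadjusted p of 0.05, edgeR gave 738 genes (5.92%), of which 299 (2.4%) were higher and 439 (3.52%) lower after 3 administrations. By plain separation, all 3 libraries of one group lay above all 3 of the other in 786 genes higher after 3 administrations (6.3%) and 777 lower (6.23%). DESeq2 called 161 genes (1.29%), 64 higher (0.513%) and 97 lower (0.778%), with Cd74 among them. When all 21 libraries entered 1 edgeR fit, 16 of 13571 genes passed (0.118%), 11 higher (0.0811%) and 5 lower (0.0368%). Cd74, H2-Eb1, H2-Aa, H2-Ab1, Clu, Vwf, Jun, Fosb, Spats2l and Epdr1 were among the higher and Evl, Gpalpp1, Vps36 and Fxyd1 among the lower. That fit takes the spread between replicates from all 7 groups. The median standard error of a log2 fold change over the genes tested was 0.146. Called below means by edgeR on the 6 libraries alone unless another fit is named, which leaves Cd74 as the only gene called. Apart from Cd74 and the sorting gate, Y-linked, metabolic and most abundant list genes, the genes described were chosen after their values were seen.

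**Figure D1:**
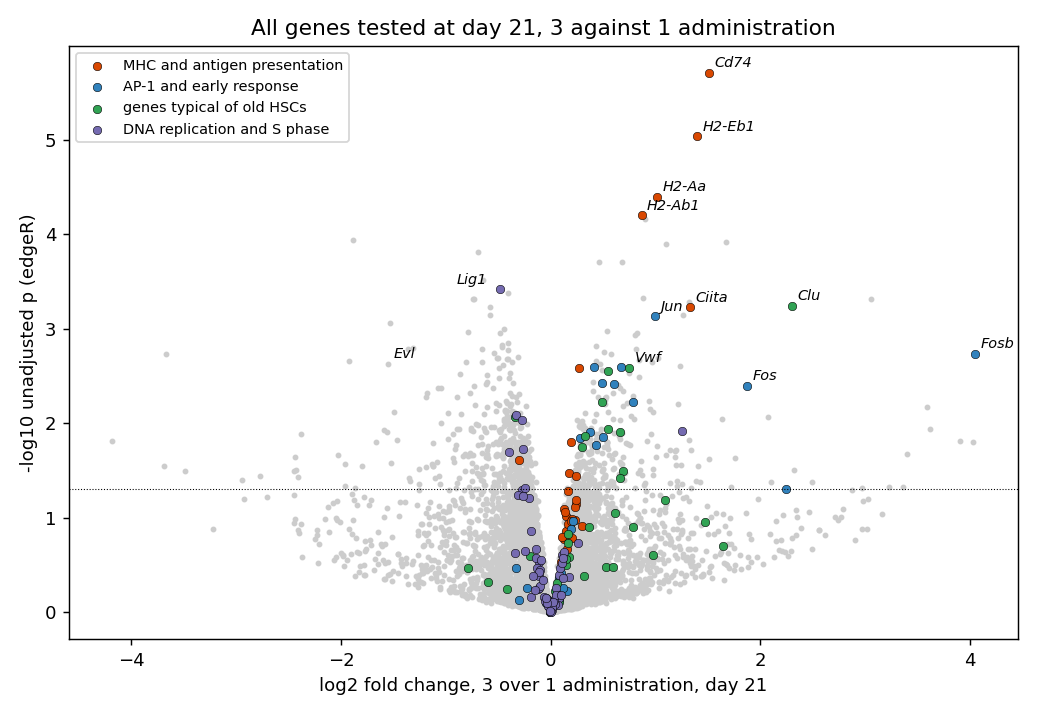
Each point is 1 gene tested at day 21, with its log2 fold change of 3 over 1 administration on the horizontal axis and -log10 of its unadjusted edgeR p on the vertical axis; the dotted line marks the unadjusted threshold of 0.05, coloured points belong to 4 gene lists, and 19 genes with a fold change outside the range are not drawn. Cd74 and the class II genes H2-Eb1, H2-Aa and H2-Ab1 stand at the top right, and most early response genes and genes typical of old HSCs lie on the right.

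MHC class II genes carried the clearest difference. Class II molecules pair an alpha and a beta chain to show peptides to CD4+ T cells. Cd74 is the invariant chain that holds the pair until a peptide is loaded, and Ciita is the coactivator that turns the class II genes on. Cd74 measured 67.4, 69.9 and 81.5 CPM after 1 administration and 202.5, 190.7 and 230.2 CPM after 3. The lowest library after 3 administrations thus lay above the highest after 1, with a log2 fold change of 1.51 (SE 0.116, edgeR adjusted p = 0.0245). In the exact permutation test the difference reached 0.1, the smallest p that 3 against 3 libraries allow. H2-Eb1, a beta chain, measured 7.41, 6.34 and 7.75 CPM against 17.6, 18.8 and 20.3 CPM (log2 fold change 1.40, SE 0.133, edgeR adjusted p = 0.0576). H2-Aa, an alpha chain, measured 12.6, 10.8 and 13.7 CPM against 24.7, 24.4 and 25.9 CPM (log2 fold change 1.02, SE 0.119, edgeR adjusted p = 0.0979). Its partner H2-Ab1 measured 18.7, 15.3 and 17.3 CPM against 30.5, 30.3 and 32.6 CPM (log2 fold change 0.87, SE 0.109, edgeR adjusted p = 0.0979). In each of these chains the groups did not overlap and the spread within the group given 5-FU 3 times was small against the gap. Ciita measured 13.8, 14.3 and 24.8 CPM against 38.6, 46.8 and 47.2 CPM, again with no overlap (log2 fold change 1.33, SE 0.234, edgeR adjusted p = 0.232). Some exon bases of Ciita are shared with Dexi on the other strand, and those of Cd74 with Mir5107, and whether counting used strand is not given in the sources used here. H2-Ob, a chain of a class II modifier rather than of an antigen presenting molecule, went the other way, with 15.3 to 18.0 CPM after 1 administration and 13.03 to 13.7 CPM after 3. The call of Cd74 was lost when any 1 of the 6 libraries was left out, with adjusted p from 0.0503 to 0.243 and log2 fold changes from 1.43 to 1.61.

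**Figure D2:**
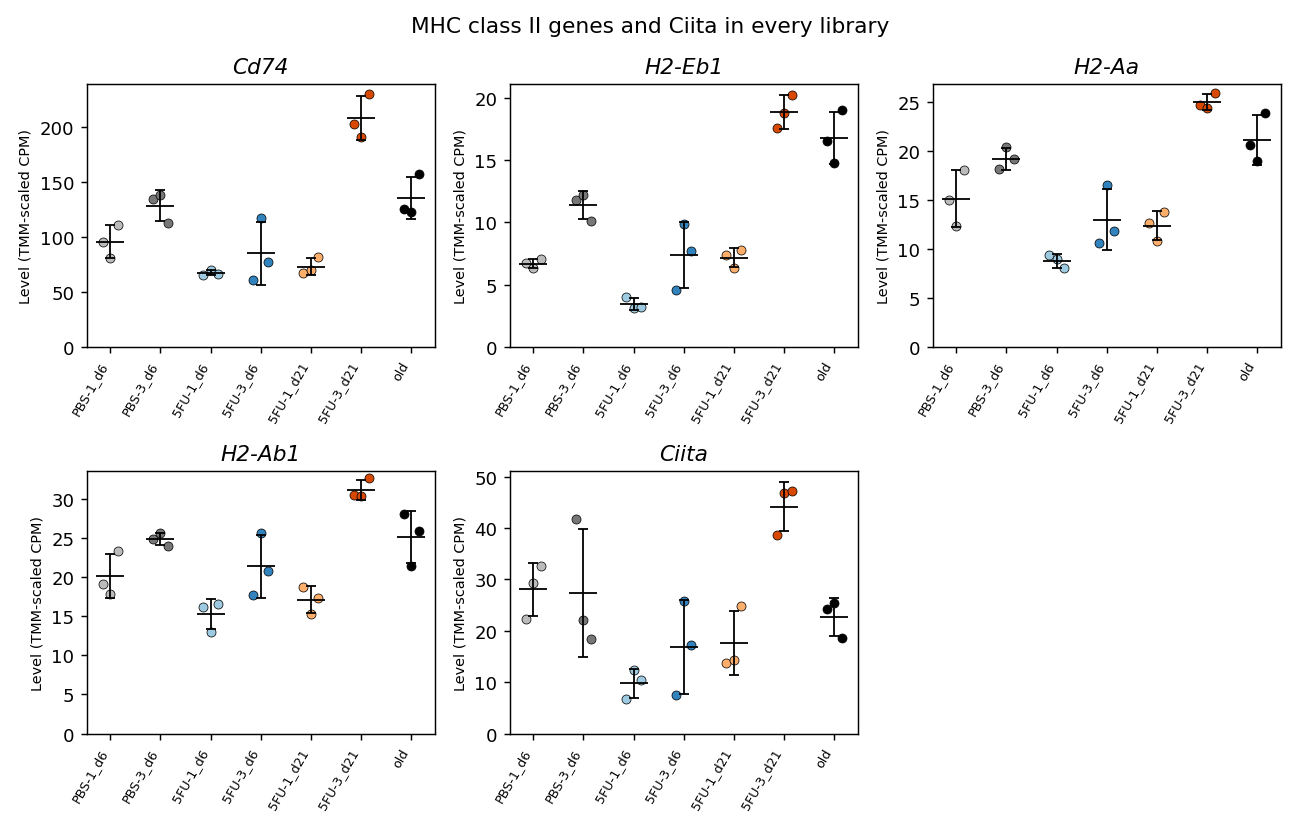
TMM-scaled CPM of 5 genes in each of the 21 libraries by group, with points for libraries, horizontal bars for means and error bars for SD (n = 3). For all 5 genes the group at day 21 after 3 administrations has the highest mean of all 7 groups, and the group at day 21 after 1 administration lies well below it.

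The other groups place these levels. The mean of Cd74 was 95.6 CPM after PBS once, 128.2 CPM after PBS 3 times and 135.0 CPM in old mice, so the level after 1 administration of 5-FU (72.9 ± 7.51 CPM, SD, n = 3) lay below all of these and that after 3 (207.8 ± 20.3 CPM, SD, n = 3) above. At day 6 after 5-FU, Cd74 averaged 67.4 CPM after 1 administration and 84.8 CPM after 3, with overlapping groups. H2-Eb1 averaged 3.438 and 7.365 CPM there, H2-Aa 8.76 and 12.95 CPM, and H2-Ab1 15.2 and 21.3 CPM, each without overlap. Class II means were thus higher after 3 administrations at day 6 too. PBS given 3 times also went with higher class II levels than PBS once at day 6: the log2 fold change was 0.43 for Cd74 (edgeR unadjusted p = 0.015, adjusted p = 0.272), 0.77 for H2-Eb1, 0.35 for H2-Aa and 0.31 for H2-Ab1. Ciita differed by -0.03 there. The excess of the 5-FU difference over the PBS difference was 1.08 for Cd74 (edgeR unadjusted p = 9.7e-05, adjusted p = 0.209), 0.63 for H2-Eb1, 0.66 for H2-Aa, 0.56 for H2-Ab1 and 1.35 for Ciita, and none passed the adjusted threshold. The PBS groups were isolated at day 6 and the 5-FU groups at day 21, so the day cannot be told apart from the treatment in that test.

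The transcription start regions of H2-Aa and H2-Eb1 are printed because both genes were higher beside Cd74 in all 3 libraries after 3 administrations and class II genes are known to share a compact set of boxes close to their start. The 250 bases before the start were read from RefSeq tables of GRCm38.p6, chr17:34287824-34288073 on the minus strand for H2-Aa and chr17:34305617-34305866 on the plus strand for H2-Eb1. Entries were also matched for 3 class I genes, H2-K1, H2-D1 and H2-Q7. The letters run 5′ to 3′ along each gene's own strand. Capitals mark 2 motifs picked after the sequences were read: CTNGCAACT, within the X box, and CTGATTGG, within the Y box, an inverted CCAAT.
H2-Aa: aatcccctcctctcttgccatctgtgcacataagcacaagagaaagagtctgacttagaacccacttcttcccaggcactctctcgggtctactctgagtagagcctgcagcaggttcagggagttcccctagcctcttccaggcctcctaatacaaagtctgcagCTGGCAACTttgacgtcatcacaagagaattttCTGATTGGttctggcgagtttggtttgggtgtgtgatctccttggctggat
H2-Eb1: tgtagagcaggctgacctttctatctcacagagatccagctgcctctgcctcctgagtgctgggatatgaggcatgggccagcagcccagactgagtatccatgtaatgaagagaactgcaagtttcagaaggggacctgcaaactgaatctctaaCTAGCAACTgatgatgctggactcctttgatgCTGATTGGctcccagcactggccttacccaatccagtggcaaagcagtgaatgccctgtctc
In H2-Aa the first motif begins 84 bases before the start and the second 51, with 24 bases between them. In H2-Eb1 they begin 94 and 62 bases before the start, with 23 bases between them. Read on both strands, CTNGCAACT was held by 0.779% and CTGATTGG by 3.83% of the 32851 start regions of the same length, and both by 0.0396%. The class I genes H2-D1 and H2-Q7 hold CTGATTGG on the reverse strand, 53 and 16 bases before their starts. A match of letters is a description of these windows only.

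Class I and the rest of antigen presentation leaned the same way by smaller steps. Of 34 listed genes 31 were tested and edgeR called 1 (Cd74), DESeq2 7 and the fit of all 21 libraries 4, each of them higher. In 28 the log2 fold change was positive, and the median log2 fold change was 0.19 against 0.0032 over all genes tested. At unadjusted p of 0.05 in edgeR, 9 were higher and 1 lower. The 3 libraries of one group lay wholly above the other's in 21 genes higher and 1 lower. The most abundant members were class I heavy chains, which show peptides to CD8+ T cells. H2-K1 measured 1714, 1693 and 1583 CPM after 1 administration and 1806, 1849 and 1769 CPM after 3 (log2 fold change 0.12, SE 0.061). H2-Q7 measured 888 to 956 CPM and 1104 to 1120 CPM (0.27, SE 0.062), and H2-Q6 1264 to 1370 CPM and 1466 to 1570 CPM (0.20, SE 0.063), while H2-T22 differed by 0.14. H2-Q6 and H2-Q7 are near-identical copies whose reads may be split between them. H2-D1 lay at 308 to 323 CPM and 355 to 357 CPM (0.18, SE 0.068), and Psmb9, a subunit of the immunoproteasome that trims peptides for class I, at 19.9 to 21.96 CPM and 23.5 to 24.9 CPM. The groups were thus apart in each of these class I genes, by log2 differences of at most 0.27. The list's median was 0.116 for PBS 3 times over once, 0.14 for 5-FU 3 times over once at day 6 and 0.103 for old over PBS 3 times.

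Genes induced by interferon lay higher after 3 administrations more often than lower, with several GTPases among the former. Of 72 listed, 67 were tested and edgeR called none, DESeq2 4 higher and the fit of all 21 libraries 1 higher. At unadjusted p of 0.05 in edgeR 11 were higher and 1 lower after 3 administrations, 49 had a positive log2 fold change, and the median was 0.144. GTPases that attack intracellular pathogens lay higher without overlap: Gbp4 at 44.9 to 65.8 against 88.0 to 111.3 CPM, Iigp1 at 77.2 to 109.6 against 127.6 to 168.0 CPM, Igtp at 35.5 to 37.9 against 43.2 to 47.4 CPM and Tgtp1 at 252.1 to 286.8 against 314.6 to 324.0 CPM. Their log2 fold changes were 0.81, 0.65, 0.32 and 0.28. Gbp4, Igtp and Tgtp1 share exon bases with neighbours on the same strand, so reads may be split among them. The abundant members Ly6e, Ifitm1 and Sp100 differed by 0.06, -0.18 and -0.06 with overlapping groups, and Irf5 was lower (-0.44). At day 6 the same list leaned the opposite way, with a median of -0.178 and 24 members lower and 4 higher at unadjusted p of 0.05 in edgeR, where 10.1% and 10.7% of all genes were. For PBS 3 times over once the median was 0.104, with 12 higher and 0 lower, against 6.84% and 5.91% of all genes.

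Class II genes are also typical of dendritic cells and macrophages, so their markers were read beside them. Of 19 such markers 14 were tested, and apart from the 4 class II genes named above none was higher at unadjusted p of 0.05 in edgeR, while 4 were lower after 3 administrations. Adgre1, which encodes the macrophage antigen F4/80, had 72, 130 and 123 counts after 1 administration and 0 in each library after 3, at least 28.7-fold lower against a floor of 3 counts per library. Of the 15 libraries outside the comparison, 10 had counts of Adgre1. It ranged from 0 to 3.42 CPM after PBS once and from 0 to 2.08 CPM in old mice. C1qc, a complement chain of tissue macrophages, measured 2.00 to 2.33 CPM and 0.623 to 0.822 CPM, C1qa 0.626 to 1.49 and 0.147 to 0.261 CPM, and Vcam1 2.19 to 6.89 and 0.971 to 2.57 CPM. Of defining dendritic cell markers, Siglech and Batf3 were at 0 counts in all 6 libraries, and Xcr1 had 1, 1 and 0 counts after 1 administration and 5, 6 and 5 after 3. Flt3 differed by -0.06 and Cd163 by 0.15. Outside the list, Itgax measured at most 0.0596 CPM and Zbtb46 1.16 to 6.26 CPM over the 6 libraries, without separation. The summed level of the whole list was 160.5 to 186.8 CPM after 1 administration and 315.6 to 362.2 CPM after 3, a sum that Cd74 dominates. Among the 6 libraries, those after 3 administrations had the higher class II levels and the lower levels of Adgre1, C1qa and C1qc. Means of C1qa (0.117 and 0.181 CPM) and C1qc (0.292 and 0.452 CPM) were lower still in old mice and after PBS 3 times. Class II means were also lower in those groups than after 3 administrations of 5-FU at day 21. The part of macrophages and dendritic cells in the class II values was not tested. In bulk RNA, fewer cells of a type and less RNA per cell cannot be told apart.

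Early response genes lay mostly higher after 3 administrations. These genes, AP-1 subunits among them, are known for being transcribed within minutes of a stimulus. Of 34 listed 28 were tested, 22 had a positive log2 fold change, and edgeR called none, DESeq2 7 higher and the fit of all 21 libraries 2 higher. At unadjusted p of 0.05 in edgeR 13 were higher and 0 lower, 14 had higher groups without overlap and 0 lower, and the median was 0.205. Jun measured 34.9, 20.8 and 25.9 CPM after 1 administration and 54.9, 51.9 and 55.0 CPM after 3 (log2 fold change 0.99, SE 0.182, edgeR adjusted p = 0.264; 0.0459 with all 21 libraries). Its partner Fos measured 3.45, 1.07 and 1.46 CPM against 6.24, 8.43 and 7.13 CPM (1.88, SE 0.459), and Fosb 4, 4 and 1 counts against 73, 34 and 28. Junb lay at 28.6 to 41.6 against 48.9 to 53.6 CPM, Jund at 50.5 to 66.0 against 79.0 to 84.9 CPM, and Egr1, a zinc finger factor of the same kind, at 9.90 to 16.6 against 20.2 to 27.5 CPM. Ier3 and Rhob differed by 0.42 and 0.67 with no overlap. Myc, the most abundant member, lay at 849 to 1105 against 975 to 1033 CPM, within the spread (0.10, SE 0.11). Set against the other groups it was the libraries after 1 administration that stood apart for Jun: the PBS means were 50.2 and 46.8 CPM, the day 6 means 45.0 and 52.9 CPM and the old mean 43.3 CPM, against 53.9 ± 1.77 CPM (SD, n = 3) after 3 administrations and 27.2 ± 7.16 CPM (SD, n = 3) after 1. Fosb and Klf2 were likewise lowest of the 7 groups after 1 administration at day 21. Some exon bases of Jun, Junb and Jund are shared with genes on the other strand. The inducible heat shock genes Hspa1a and Hspa1b, near-identical copies, lay at 33.7 to 59.8 against 92.7 to 136.8 CPM and at 38.8 to 69.5 against 103.1 to 152.1 CPM (1.32 and 1.27). Among the chaperones the list's median was 0.0372, 2 of 48 were higher and 1 lower at unadjusted p of 0.05 in edgeR, and the abundant Hspa8, Canx, Dnaja1 and Hspa5 differed by -0.14 to 0.03.

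**Figure D3:**
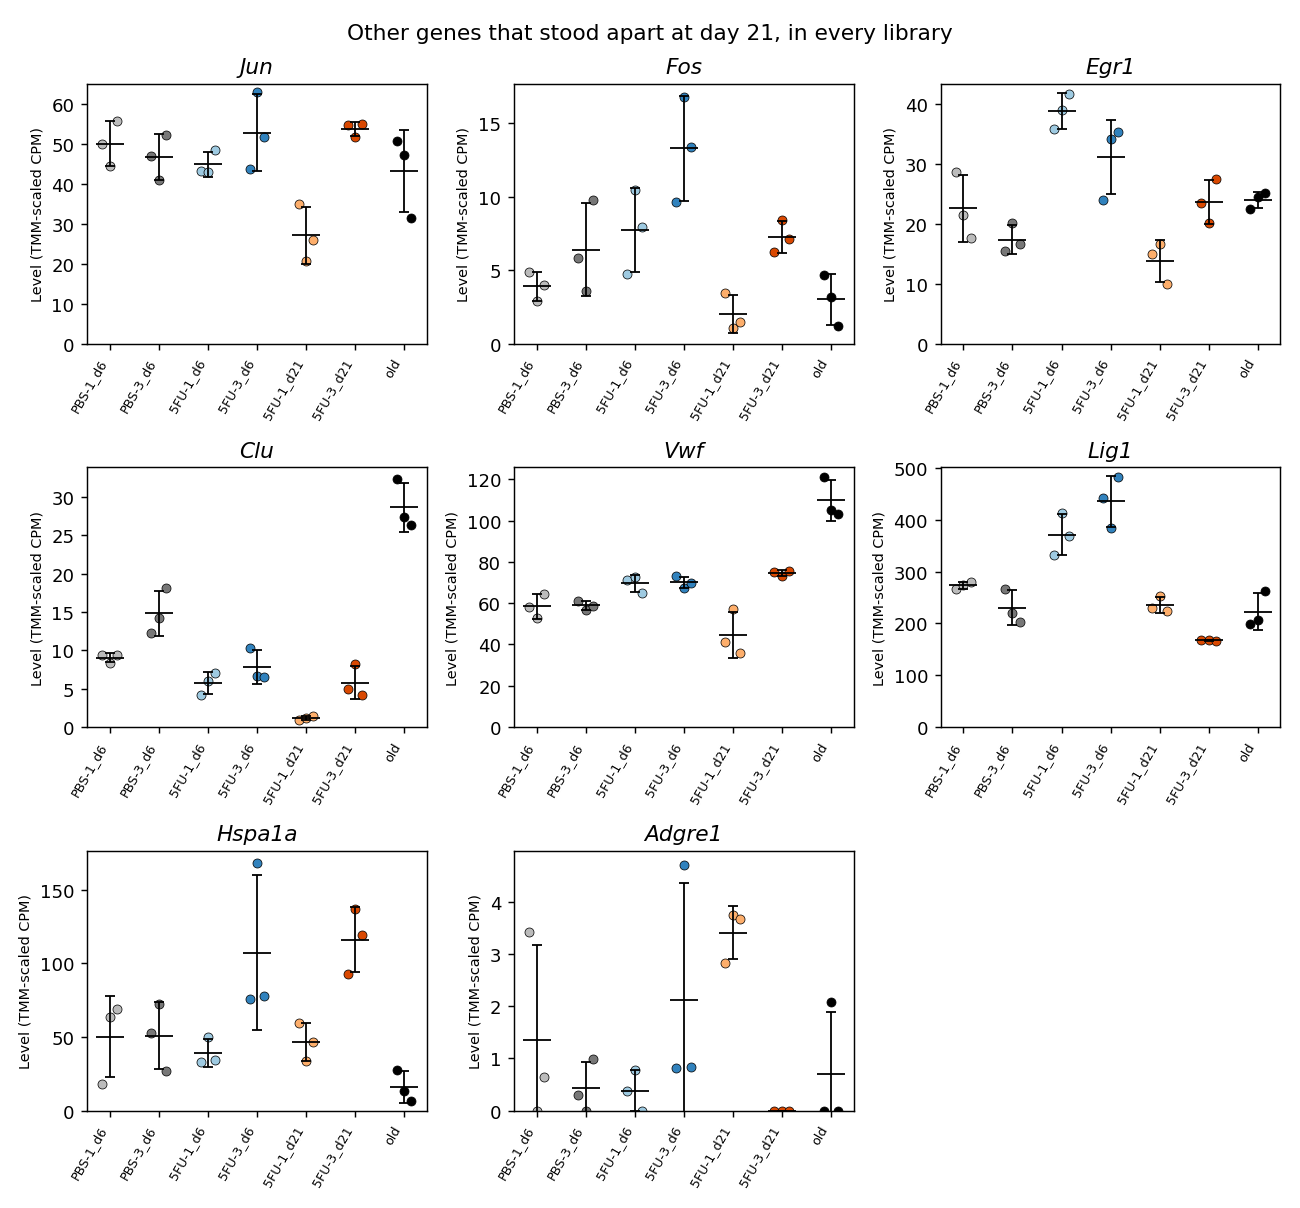
TMM-scaled CPM of 8 genes in each of the 21 libraries by group, with points for libraries, horizontal bars for means and error bars for SD (n = 3), drawn from 0 so that SD bars reaching below 0 are cut. Jun, Clu and Vwf are lowest after 1 administration at day 21, Lig1 is lowest after 3, and Adgre1 is at 0 in all 3 libraries after 3 administrations.

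Genes typical of old HSCs leaned upward after 3 administrations relative to 1, but their summed level did not exceed that of both PBS groups. Of 40 listed 37 were tested and edgeR called none, DESeq2 3 higher and 1 lower, and the fit of all 21 libraries 2 higher. Of the 37, 29 had a positive log2 fold change, 10 were higher and 1 lower at unadjusted p of 0.05 in edgeR, and the median was 0.315. Clu, a secreted chaperone, measured 0.863, 1.18 and 1.46 CPM after 1 administration and 4.93, 8.24 and 4.20 CPM after 3 (log2 fold change 2.30, SE 0.404, edgeR adjusted p = 0.232; 0.00189 with all 21 libraries). Vwf, the platelet adhesion factor that marks platelet-biased HSCs, measured 41.0, 57.1 and 35.7 CPM against 75.2, 73.2 and 75.6 CPM (0.75, SE 0.169, edgeR adjusted p = 0.383; 0.0191 with all 21 libraries). After 3 administrations Clu averaged 5.79 CPM, below the PBS groups at 9.05 and 14.8 CPM and old mice at 28.6 CPM. Vwf averaged 74.7 CPM, above the PBS groups at 58.6 and 58.9 CPM and below old mice at 109.9 CPM. The summed level of the list was 2100 to 2210 CPM after 1 administration and 2362 to 2634 CPM after 3. It was 2367 to 2422 CPM after PBS once, 2702 to 2759 CPM after PBS 3 times and 3964 to 4342 CPM in old mice. Aldh1a1, which oxidises retinal and other aldehydes, lay at 186.8 to 293.0 against 313.7 to 384.9 CPM (0.54). Selp, an adhesion receptor, lay at 40.7 to 46.7 against 52.6 to 57.7 CPM (0.30), Fhl1 at 90.5 to 100.9 against 111.3 to 132.8 CPM (0.33) and Nupr1 at 8.56 to 9.42 against 11.9 to 13.3 CPM (0.49). The abundant members Mmrn1, Enpp5 and Pdzk1ip1 differed by 0.05, 0.14 and 0.17 with overlapping groups, and Rnase6 was lower, at 79.6 to 86.8 against 61.7 to 69.6 CPM. The same list had a median of 0.333 for PBS 3 times over once, with 14 higher and 1 lower at unadjusted p of 0.05 in edgeR, and 0.786 for old over PBS 3 times, where 12 were called higher and 0 lower (0.553% and 0.444% of all genes, 0.996% together). The median over the list of the difference between the 5-FU and PBS comparisons was 0.0608, with 3 members higher and 6 lower at unadjusted p of 0.05 in edgeR (4.63% and 5.03% of all genes) and none called.

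More platelet lineage genes lay higher than lower after 3 administrations, but their summed level did not rise. Of 26 listed 23 were tested and edgeR called none, DESeq2 3 higher and 1 lower, and the fit of all 21 libraries 1 higher. In 16 (69.6%, against 50.7% of all genes tested) the log2 fold change was positive, 5 were higher and 1 lower at unadjusted p of 0.05 in edgeR, and the median was 0.163. Beside Vwf and Selp, Itgb3, a chain of the fibrinogen receptor, lay at 21.95 to 28.1 against 33.3 to 39.7 CPM (0.55). Thbs1, which encodes thrombospondin, had 0 counts in each library after 1 administration and 60, 57 and 45 after 3, at least 17.3-fold higher, and 69.5 CPM on average in old mice. Of the 15 libraries outside the comparison, 12 had counts of Thbs1, and it ranged from 0 to 8.33 CPM after PBS 3 times. Gfi1b, a repressor needed for platelet and red cell formation, was on the other side, at 180.6, 196.6 and 163.1 CPM against 137.0, 137.5 and 151.6 CPM (-0.34, SE 0.098). Nfe2 and Rab27b, among the most abundant members, differed by -0.15 and -0.08 with overlapping groups. The summed level of the list was 3341 to 3958 CPM after 1 administration and 3338 to 3480 CPM after 3.

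**Figure D4:**
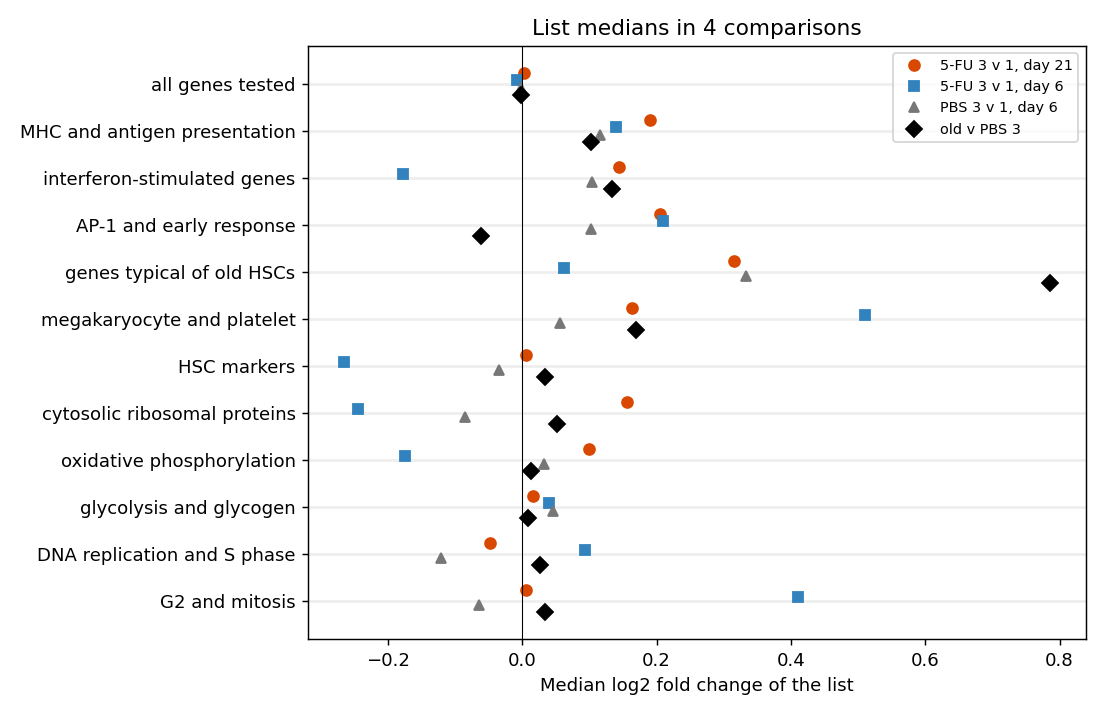
Median log2 fold change (horizontal axis) of 11 gene lists and of all genes tested in 4 comparisons that share no library, except that PBS 3 times enters both the PBS and the old comparison. At day 21 the list of genes typical of old HSCs has the largest median of those drawn, 0.315, close to 0.333 for PBS, while G2 and mitosis genes lie at 0.00566 at day 21 and 0.41 at day 6.

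HSC marker genes lay in both directions by small steps. All 26 listed were tested, edgeR called none and DESeq2 and the fit of all 21 libraries 1 lower each, 14 had a positive log2 fold change, 3 were higher and 2 lower at unadjusted p of 0.05 in edgeR, and the median was 0.0053. The abundant markers Kit, Angpt1 and Gata2 differed by -0.18, -0.04 and -0.09. Ly6a, which encodes the gate antigen Sca-1 and responds to interferon, lay at 363 to 437 against 442 to 607 CPM (0.40), and Esam at 34.3 to 38.6 against 41.7 to 46.5 CPM (0.28). Meis1, a homeobox factor of HSC self-renewal, lay at 570 to 591 against 489 to 523 CPM (-0.18). Procr, which encodes EPCR, and Flt3, a receptor of more mature progenitors, differed by 0.16 and -0.06. Among 39 cytokine receptor genes tested, 2 were higher and 3 lower at unadjusted p of 0.05 in edgeR, with a median of 0.0153. Csf2rb, the common beta chain of the receptors for GM-CSF and IL-5, lay at 35.6, 43.7 and 57.5 against 22.4, 19.6 and 31.8 CPM (-0.89), Il11ra1 at 257.9 to 301.7 against 217.1 to 254.0 CPM (-0.26), and Tek at 226 to 254 against 192 to 222 CPM (-0.18).

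Cell cycle genes showed little difference at day 21. Of 71 genes of G2 and mitosis none was called by edgeR, DESeq2 or the fit of all 21 libraries, 0 were higher and 2 lower at unadjusted p of 0.05 in edgeR, and the median was 0.00566. Mki67, which encodes the division marker Ki67, lay at 43.3 to 52.3 against 45.1 to 53.4 CPM (log2 fold change 0.01, SE 0.113), below the means of the PBS groups at 74.6 and 58.4 CPM. Hmgb2, Prc1, Smc4 and Tpx2 differed by 0.01, -0.09, 0.13 and -0.19, all with overlap. At day 6 the same comparison of 3 with 1 administrations had 59 of the 71 higher and 0 lower at unadjusted p of 0.05 in edgeR and called 27 higher and 0 lower (1.49% and 1.2% of all genes), with a median of 0.41. Of 60 genes of DNA replication and S phase edgeR called none and DESeq2 3 lower, 1 was higher and 6 lower at unadjusted p of 0.05 in edgeR, and the median was -0.0475. Lig1, the ligase that joins Okazaki fragments, lay at 229.4, 252.2 and 224.4 CPM after 1 administration and 168.8, 167.2 and 166.9 CPM after 3 (-0.49, SE 0.08, edgeR adjusted p = 0.217), and the groups did not overlap. Rfc1, of the clamp loader, and Slbp, which binds histone mRNA, differed by -0.33 and -0.27 without overlap, and Ccne1 (cyclin E) was higher, at 1.46 to 2.82 against 4.03 to 5.24 CPM. The abundant Mcm7, Mcm6 and Uhrf1 differed by -0.14, -0.11 and -0.04 with overlap. Of 18 cyclins, CDKs and inhibitors tested edgeR called none, 2 were higher and 1 lower at unadjusted p of 0.05 in edgeR, and the median was 0.0653.

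Energy metabolism, the subject of the study, showed small differences. Pfkfb3, the kinase that makes the activator of phosphofructokinase, measured 133.0, 157.3 and 168.6 CPM after 1 administration and 163.7, 188.2 and 186.4 CPM after 3, with overlapping groups (log2 fold change 0.23, SE 0.113, edgeR adjusted p = 0.844). Prmt1, an arginine methyltransferase, measured 106.0, 120.7 and 115.9 against 120.1, 103.8 and 102.5 CPM (-0.07, SE 0.103). Of 13 arginine methyltransferase genes tested edgeR called none and DESeq2 1 lower, and 1 was lower at unadjusted p of 0.05 in edgeR, Prmt2, at 73.5 to 84.3 against 56.1 to 64.8 CPM (-0.39), while Prmt5 and Carm1 differed by 0.02 and 0.04. Of 38 glycolysis and glycogen genes edgeR called none and DESeq2 1 lower. At unadjusted p of 0.05 in edgeR 1 was higher and 1 lower, and the median was 0.0153. Pkm, Eno1, Aldoa and Ldha differed by 0.03, -0.09, 0.03 and 0.02 with overlap. The lower gene at that unadjusted threshold was Eno2, the neuronal enolase isoform, at 23.3 to 25.8 against 15.1 to 17.1 CPM (-0.64, SE 0.103, edgeR adjusted p = 0.193). Of 79 oxidative phosphorylation genes 63 had a positive log2 fold change but only 1 was higher and 0 lower at unadjusted p of 0.05 in edgeR, with a median of 0.10. The 4 most abundant, Atp5j, Atp5c1, Ndufs1 and Cox4i1, differed by -0.06 to 0.07. Genes of the cytosolic ribosome, which builds proteins, leaned the same way: 59 of 78 tested had a positive log2 fold change, with a median of 0.156, but 0 passed in either direction at unadjusted p of 0.05 in edgeR. Their median at day 6 was -0.245. In both lists the summed levels after 3 administrations reached below and above all those after 1. Ribosomal genes summed to 12660 to 13300 CPM after 1 administration and 10310 to 14500 CPM after 3. Oxidative phosphorylation genes summed to 4462 to 4563 CPM after 1 and 4056 to 4874 CPM after 3.

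Some genes of low abundance were read in one group only. With at least 10 counts in each library of one group and 0 in each of the other, 5 genes were found after 3 administrations only and 7 after 1 only. The same rule gave 4 and 7 for 5-FU at day 6, and 0 and 10 for PBS given 3 times and once, so numbers of this size were also met elsewhere. Sphk1, which makes sphingosine-1-phosphate, had 309, 561 and 150 counts after 3 administrations, at least 108-fold higher, and counts in 5 of the 15 libraries outside the comparison. Ms4a2, a chain of the IgE receptor of mast cells, had 131, 165 and 58 counts after 1 administration, at least 32.6-fold lower after 3, and counts in 5 of those 15 libraries. Spats2l and Fxyd1, called with all 21 libraries in the fit, belong to the same set. Other cell type markers did not move together: the summed levels of neutrophil and monocyte genes were 224.2 to 319.3 CPM after 1 administration and 245.2 to 286.6 after 3, of erythroid genes 1210 to 1347 and 1099 to 1286, of lymphoid genes 143.7 to 164.9 and 127 to 151.4, of mast cell and basophil genes 5.96 to 12.1 and 5.30 to 7.66, and of stroma and endothelium genes 72.0 to 111.7 and 81.0 to 86.4 CPM.

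Across all genes the day 21 difference was set beside 3 comparisons that use none of its libraries. Of 12364 genes tested in both, 53.9% had the same sign as in old over PBS 3 times, and of the 116 called in that comparison and tested at day 21 80.2% did. Among those called, 60 were higher in old HSCs, with a median of 0.323 at day 21, and 19 of these were higher and 1 lower at day 21 at unadjusted p of 0.05 in edgeR. The 56 called lower in old HSCs had a median of -0.0878 at day 21, with 0 higher and 4 lower. Old HSCs lacked Y-linked transcripts, so sex and age cannot be told apart in that reference. For PBS 3 times over once 48.6% of 12369 genes had the same sign, with 2 calls in that comparison (0.0156% of 12806), 1 in each direction (0.00781%). For 5-FU 3 times over once at day 6 44.7% of 12262 had the same sign, and 57% of the 328 genes called there (of 339 calls in all, 2.68% of 12629). The test of the difference between days called 31 of 13036 genes (0.238%), 7 with a more positive log2 fold change at day 21 (0.0537%) and 24 with a more negative one (0.184%). The wider gate at day 6 and the suffix on the columns of the day 6 group treated once also enter that test and cannot be told apart from the day. The test against the PBS difference called 0 of 13182 in edgeR, with 1273 at unadjusted p of 0.05 (9.66%), and 219 by DESeq2.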

How the data were processed

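RNA-seq counts per gene were analysed for 6 libraries, with 15 others of the series as references. The authors sequenced single-end reads of 75 bases from SMART-Seq v4 cDNA and Nextera XT libraries and aligned them to mm10 with TopHat 2.0.13; Cufflinks 2.2.1 and Cuffdiff are named too. The deposited values are raw counts for 21000 genes; the program that made them and the use of strand are not given in the sources used here. Columns were mapped to samples by their titles, and 0 columns were left unmapped. The study names 3 independent experiments as biological replicates for each cell type and also describes pooled samples, with the number of mice not given in the sources used here. In R 4.3.3, edgeR 4.0.16 was used (filterByExpr, TMM, quasi-likelihood F test, Benjamini-Hochberg over all genes tested, threshold 0.05). Levels are CPM scaled by TMM over 21 libraries, and a count of 0 allows up to 3 counts, 0.0864 to 0.119 CPM in the 6 libraries, for counting error only. Permutation tests were exact and two-sided over 20 assignments. Alternatives were RLE or no factors, DESeq2 1.42.0, other filters, all 21 libraries in 1 fit, a replicate block, and leaving out each library. The scripts were tested on simulated data.

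Members and the 49 gene lists were chosen with earlier results of these data known. Named genes were those called with at least 100 mean counts and no overlap, which left Cd74, the most abundant members of each list described, and Pfkfb3, Prmt1, sorting gate, division and Y-linked genes; the others were chosen after their values were seen. Replicate pairs of a group differed by 12 to 23 times the sampling variance, so none was a copy of another. The smallest p of an exact test of 3 against 3 libraries is 0.1. Coordinates are from GENCODE vM21 on GRCm38, and start regions from RefSeq. Some items are not reported here.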

Additional observations from a re-analysis of the deposited data

Results flagged for a closer look

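The difference between 3 and 1 administrations itself differed between day 21 and day 6 for 31 of 13036 genes, by the interaction test of edgeR at an adjusted p of 0.05. The sorting gate also differed between these days, and the column suffix set apart the day 6 group given 5-FU once. Of these 31 genes, 24 were also called in the comparison at day 6. Among the genes described above, Gfi1b was on opposite sides at the 2 days: -0.34 at day 21 and 0.54 at day 6, an interaction of -0.88 (edgeR adjusted p = 0.0241). Gpalpp1 was lower after 3 administrations at day 21 (-0.58; 28.6 to 32.8 against 18.8 to 21.5 CPM) and differed by 0.21 at day 6, an interaction of -0.794 (edgeR adjusted p = 0.0466). Both interactions were part of the same count, which fell to 0 without the second library given 5-FU 3 times at day 21.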

How the results depend on the processing

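The count of 1 gene called at day 21, Cd74, was the same with RLE factors, without factors and with either other filter. It was 161 with DESeq2, 16 with all 21 libraries in 1 fit and 0 without each library, and the count of list members called, 1, became 47, 10 and 0. Day 6 (339) gave 1284 with DESeq2, 514 with all libraries and 21 to 176 without 1 library. PBS (2) gave 547, 19 and 0 to 1, the treatment interaction (0) 219, 3 and 0 to 1, and the day interaction (31) 714, 221 and 0 to 77. Old over PBS 3 times (128) gave 569 with DESeq2 and 20 to 76 without 1 library. Without factors, day 6 calls split into 138 higher and 251 lower in place of 188 and 151, and day interaction calls into 19 and 16 in place of 7 and 24. With the replicate number as a block, the counts were 0 at day 21 (0 list members, 741 genes at unadjusted p of 0.05 in edgeR, Cd74 adjusted p = 0.12), 59 at day 6, 0 for PBS, 7 for the day interaction and 30 for old. The numbers did not pair the libraries: deviations of same-numbered libraries correlated at -0.0123, 0.0433 and -0.0168, and 1 of 3 libraries correlated best with its own number. The cause of these shifts was not tested.

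Small log2 fold changes at day 21 changed sign. Without factors Ddx3y was 0.022, Hspa8 0.020 and Uhrf1 0.0029, under the block Hmgb2 was -0.0032, and Mki67 was -0.001098 with RLE and -0.001498 with DESeq2. Leaving out 1 library gave ranges for Aldoa from -0.018 to 0.10, Angpt1 from -0.083 to 0.0069, Atp5c1 from -0.0067 to 0.15, Atp5j from -0.14 to 0.074, Carm1 from -0.11 to 0.18, Cd48 from -0.63 to 0.22, Cox4i1 from -0.053 to 0.15, Ddx3y from -0.15 to 0.047, Eif2s3y from -0.14 to 0.0027, Flt3 from -0.17 to 0.015, Hmgb2 from -0.062 to 0.15, Hspa8 from -0.058 to 0.038, Ldha from -0.035 to 0.077, Ly6e from -0.027 to 0.14, Mki67 from -0.067 to 0.071, Ndufs1 from -0.19 to 0.01009, Pkm from -0.048 to 0.16, Prc1 from -0.25 to 0.021, Prmt5 from -0.038 to 0.088, Rab27b from -0.18 to 0.028, Sp100 from -0.12 to 0.017, Uhrf1 from -0.11 to 0.059 and Uty from -0.18 to 0.29. With 3 libraries a group, depth of 25270496 counts or more and a median SE of 0.146, small differences are not resolved, and which of these limits the precision was not tested.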
